A study of Rattus norvegicus with 6 samples.

Results

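The genes described here build, modify, organise and break down the hyaluronan and versican matrix. They are the rows of the deposited gene table whose symbol is Has1, Has2, Has3, Hyal1, Hyal2, Cemip, Tnfaip6, Vcan, Hapln1 or Hapln3. All 10 were found among the 22085 genes listed, and all 10 passed the filter on low counts that left 15776 genes for testing. Cultured rat amniotic fluid cells were profiled by RNA sequencing in 3 libraries from a model of preeclampsia, a hypertensive disorder of pregnancy, and 3 from control pregnancies. In both groups the fluid was taken on embryonic day 18.5 and the cells were harvested at passage 4, in serum-containing medium. The strain, the way the model was induced and the number of animals or fetuses behind a library are not given in the sources used here, so p-values measure only the spread between these libraries. Total counts lay between 48402185 and 59193961 per library.

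Hyaluronan is a long unsulfated sugar chain that synthases of the Has family extrude through the plasma membrane. Hyaluronidases and Cemip cut it into shorter pieces, and the secreted protein encoded by Tnfaip6 transfers heavy chains of a serum protein onto it. Versican, the product of Vcan, is a large chondroitin sulfate proteoglycan that binds hyaluronan, and the link proteins encoded by Hapln1 and Hapln3 stabilise such binding. Loose fetal and stromal tissues are rich in this matrix.

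The labelled cell type, mesenchymal stem cells, was checked against marker genes. The summed FPKM (fragments per kilobase of transcript, relative to sequencing depth) of 11 mesenchymal markers lay between 6392 and 8028 in preeclampsia libraries and between 4641 and 6146 in control libraries, without overlap, led by the collagen genes Col1a1 and Col1a2. Of the 11, 9 had a log2 fold change above 0 and 0 were called by edgeR, and their part in the values given here was not tested. Each of the 6 epithelial markers in the table stayed under 1 FPKM in every library, the highest being Krt14 and Cldn3. The endothelial genes Pecam1, Cdh5, Tek and Erg also stayed under 1 FPKM throughout. Kdr, the highest of the endothelial list, stood at 0.67, 0.22 and 3.19 FPKM in preeclampsia libraries 1 to 3 and 2.00, 0.17 and 0.07 FPKM in control libraries 1 to 3. The 9 mesothelial markers summed to 19.6, 19.1 and 33.4 FPKM in preeclampsia libraries 1 to 3 and 7.02, 71.3 and 24.2 FPKM in control libraries 1 to 3, and the groups overlapped. Of the 8 tested, 2 had a log2 fold change above 0 and 6 below, and 0 were called by edgeR. Msln was higher in every preeclampsia library (11.8 to 20.9 FPKM) than in any control library (1.06 to 2.03 FPKM), while Krt18 was lower in every preeclampsia library (0 to 0.20 FPKM) than in any control library (0.48 to 17.2 FPKM). Macrophage markers, led by Laptm5 and Lyz2, were present and varied within both groups. All 10 had a log2 fold change above 0, and 0 were called by edgeR. Their sum was 26.1, 359 and 177 FPKM in preeclampsia libraries 1 to 3 and 137, 106 and 25.4 FPKM in control libraries 1 to 3. The 11 genes of the G2 and M phases, led by Cenpf and Mki67, all above 0 and 0 called, summed to 425, 85.9 and 89.4 FPKM in preeclampsia libraries 1 to 3, against 158, 217 and 87.3 FPKM in control libraries 1 to 3.

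The comparison asked how these matrix genes stood in preeclampsia libraries relative to control libraries. Tnfaip6 and Cemip stood higher in every preeclampsia library than in any control library, with mean FPKM 4.12 and 5.23 times the control means. Vcan, Has2 and Hyal2, the other abundant members, overlapped between the groups. Hapln1 had the lowest preeclampsia mean relative to control, 0.262 times, and that value rested on control library 1. By edgeR's quasi-likelihood test with Benjamini-Hochberg adjustment over all 15776 genes, 0 of the 10 members passed an adjusted p of 0.05, and 0% of all tested genes did. At an unadjusted p under 0.05 edgeR had 2 of the 10 members, against 9.19% of all tested genes (1450). DESeq2 called 2 of the 10, Tnfaip6 and Cemip, both higher. It called 2.36% of the 14815 genes for which it gave an adjusted p (350 genes), 1.04% being higher. The FPKM ranges of the groups did not overlap in 2 of the 10 members, both higher, and in 14.5% of all tested genes, 6.15% being higher and 8.32% lower. With 2 of 10 members in each count, these shares rest on the same pair of genes. Of the members, 7 had a log2 fold change above 0 and 3 below, with a median of 0.26, while 51.7% of all tested genes were above 0 and their median was 0.01.

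**Figure D1:**
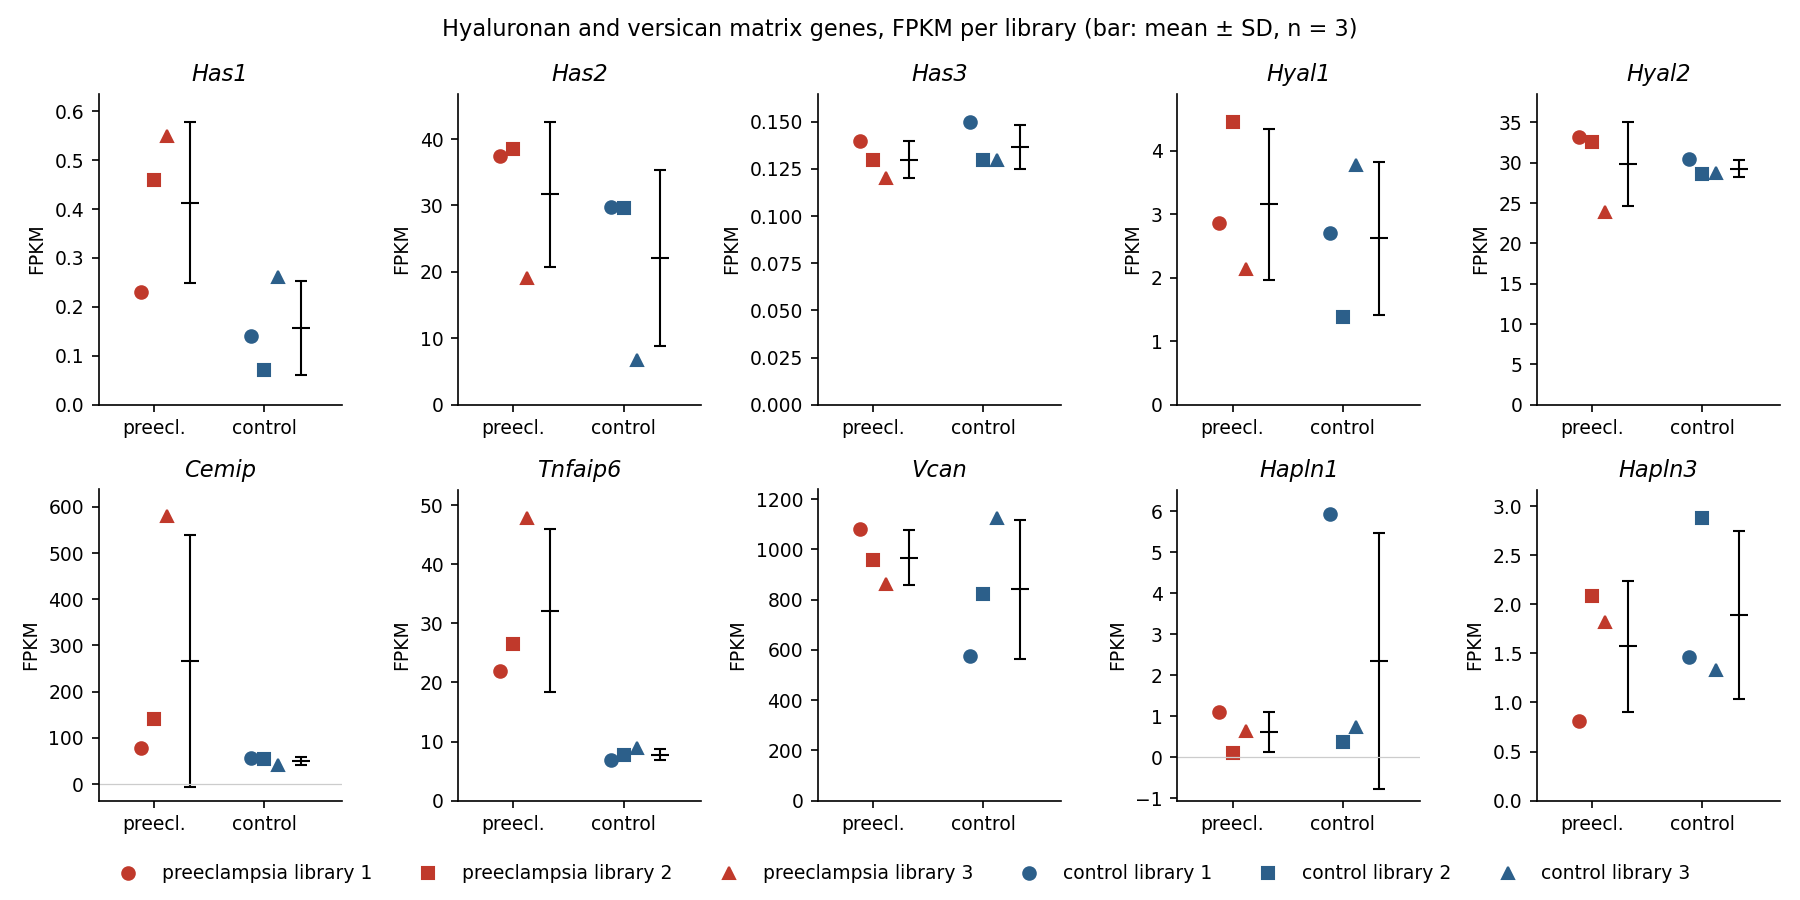
FPKM of each of the 10 genes in each library, with a separate linear axis per gene. Points are libraries, with preeclampsia left of control, and the bar is the mean ± SD of 3 libraries. Tnfaip6 and Cemip show no overlap between the groups, and preeclampsia library 3 carries the highest Cemip value, 580 FPKM.

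Levels per transcript length spanned several orders of magnitude and kept much of their order in all libraries. Vcan was first and Cemip second in each of the 6 libraries. In the preeclampsia group Tnfaip6, Has2 and Hyal2 followed at means of 32.1, 31.7 and 29.9 FPKM, which did not differ beyond their spread. In the control group Hyal2 and Has2 followed at means of 29.3 and 22.0 FPKM, also within their spread, and Tnfaip6 came after them at 7.81 FPKM. The other 5 members, Hyal1, Hapln1, Hapln3, Has1 and Has3, averaged under 5 FPKM over all libraries.

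Tnfaip6 encodes TSG-6, a secreted hyaluronan-binding protein known to be induced by inflammatory signals. It spans 36502250 to 36521652 on the plus strand of chromosome 3 in the table's coordinates, and no other row of the table overlaps it. Tnfaip6 reached 22.0, 26.6 and 47.8 FPKM in preeclampsia libraries 1 to 3, against 6.88, 7.67 and 8.87 FPKM in control libraries 1 to 3. The lowest preeclampsia library was 2.48 times the highest control library. The group means were 32.1 ± 13.8 FPKM in the preeclampsia group and 7.81 ± 1.00 FPKM in the control group (SD, n = 3 each). The log2 fold change was 2.07 (SE 0.32), with an unadjusted p of 4.9e-04 and an adjusted p of 0.313 by edgeR, and it ranked at number 21 by p among all tested genes. DESeq2 gave an adjusted p of 6.9e-07, and over all 14 alternatives the adjusted p ran from 6.9e-07 to 0.759, with log2 fold changes between 1.66 and 2.38. Macrophage markers were lowest in preeclampsia library 1 and control library 3, where Tnfaip6 was 22.0 and 8.87 FPKM. Without both libraries, a fit chosen after seeing the data, its log2 fold change was 2.38 (SE 0.31, adjusted p = 0.0754 by edgeR). In the libraries kept, macrophage sums were 359 and 177 FPKM for preeclampsia and 137 and 106 FPKM for control. These sums did not overlap either, so that fit cannot separate Tnfaip6 from macrophage content. The part of macrophages in the Tnfaip6 values was not tested. The mesothelial genes did not share 1 direction: Msln was higher and Krt18 lower in every preeclampsia library, as given above, and Krt8 overlapped, at 0.40 to 1.35 FPKM in preeclampsia libraries and 1.12 to 37.4 FPKM in control libraries. The part of mesothelial cells in the Tnfaip6 values was not tested. In these bulk cultures, more cells of a kind and more RNA per cell cannot be told apart.

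Cemip encodes a secreted protein needed for hyaluronan depolymerisation by fibroblasts. It spans 137906921 to 138062430 on the minus strand of chromosome 1. Cemip stood at 77.8, 141 and 580 FPKM in preeclampsia libraries 1 to 3, against 57.0, 54.8 and 40.9 FPKM in control libraries 1 to 3. The groups did not overlap, but preeclampsia library 1 was only 1.37 times the highest control library and preeclampsia library 3 stood far above the rest. Its mean was 266 ± 273 FPKM in the preeclampsia group and 50.9 ± 8.69 FPKM in the control group (SD, n = 3 each), and the log2 fold change was 2.41 (SE 0.76). The unadjusted p was 0.018 and the adjusted p 0.470 by edgeR, and the adjusted p over the alternatives ran from 0.018 in DESeq2 to 0.777. Without preeclampsia library 3 the log2 fold change was 1.13. That library also held the highest Tnfaip6 and Has1 of the 6 libraries, and the lowest Hyal2.

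The start regions of these genes are shown because Tnfaip6 and Cemip are the members whose groups did not overlap. The sequences are RefSeq's on the build GRCr8, from 250 bases before to 50 after the annotated start, at chr3:56911148-56911447 on the plus strand for Tnfaip6 and chr1:147471434-147471733 on the minus strand for Cemip. Capitals mark the motifs found.
Tnfaip6: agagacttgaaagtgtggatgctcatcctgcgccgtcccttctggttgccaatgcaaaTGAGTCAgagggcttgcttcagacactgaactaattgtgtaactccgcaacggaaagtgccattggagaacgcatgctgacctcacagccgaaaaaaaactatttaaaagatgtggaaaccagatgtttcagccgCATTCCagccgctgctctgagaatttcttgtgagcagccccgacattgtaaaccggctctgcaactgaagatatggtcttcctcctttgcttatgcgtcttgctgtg
Cemip: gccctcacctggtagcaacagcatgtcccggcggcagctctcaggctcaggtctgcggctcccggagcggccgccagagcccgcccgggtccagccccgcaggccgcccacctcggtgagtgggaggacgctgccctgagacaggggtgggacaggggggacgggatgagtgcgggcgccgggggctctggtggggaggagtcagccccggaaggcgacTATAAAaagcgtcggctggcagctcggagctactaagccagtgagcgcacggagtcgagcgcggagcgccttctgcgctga
Motifs were chosen after the sequences had been read and were searched on both strands: TGANTCA for AP-1, TGACGTCA for the cyclic AMP response element, TATAAA for the TATA box, GGAATG for TEAD and the NF-kB motif. An AP-1 motif began at position -192 of the Tnfaip6 region, counted from the start site, and a TEAD motif, in its reverse form CATTCC, at -57. Cemip held a TATA box at -31 and none of the others. Of 33365 rat start regions of the same length, 7.34% held AP-1, 14.2% TEAD, 14.2% the TATA box, 1.83% the cyclic AMP response element and 5.03% NF-kB. Of the 7 members with a start region in the table, Has1 held a cyclic AMP response element at -83 and Hyal2 a TEAD motif at -202, while the regions of Hyal1, Vcan and Hapln1 held none of those searched. GC content was 48.3% in the Tnfaip6 region and 71.0% in the Cemip region.

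**Figure D2:**
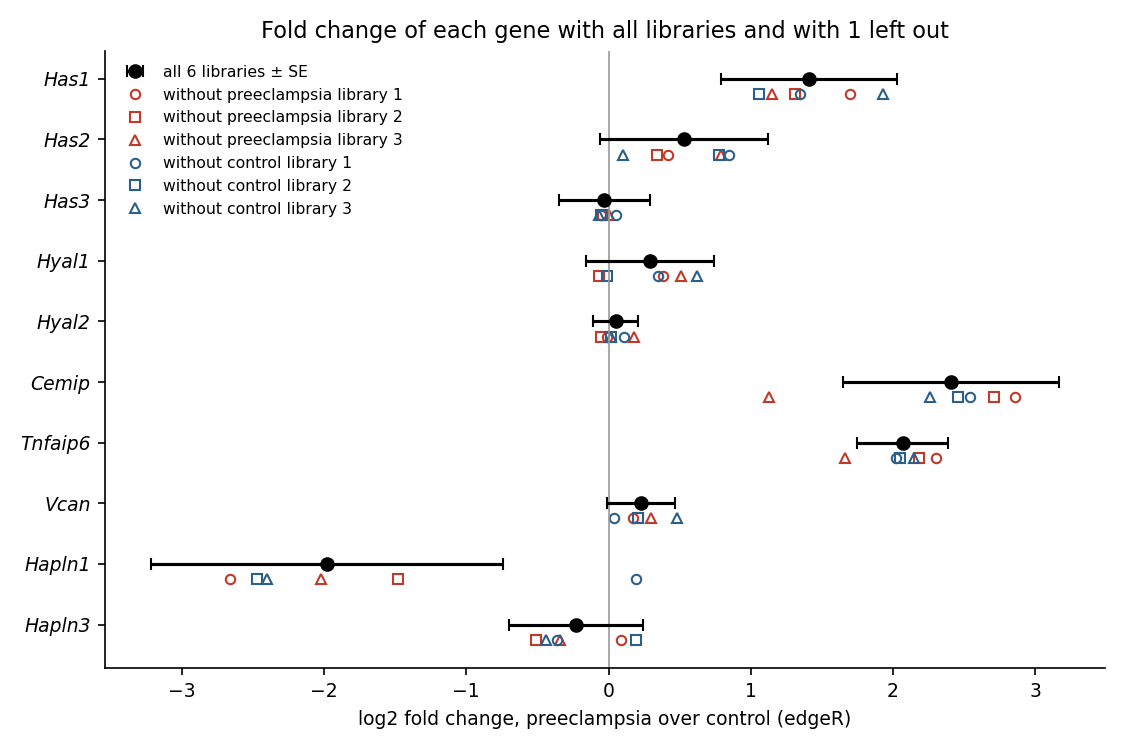
Log2 fold change of each gene, preeclampsia over control, by edgeR. Black points are the fit to all 6 libraries with its SE, and open symbols are fits with 1 library left out. Tnfaip6 stays between 1.66 and 2.30, Cemip reaches 1.13 without preeclampsia library 3, and Hapln1 reaches 0.19 without control library 1.

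Among the synthases, Has2 supplied nearly all of the measured RNA. It made up 99.0, 98.5 and 96.6% of the summed synthase FPKM in preeclampsia libraries 1 to 3 and 99.0, 99.3 and 94.5% in control libraries 1 to 3. Loss of Has2 is lethal to mouse embryos. Has2 levels were 37.5, 38.5 and 19.1 FPKM in preeclampsia libraries 1 to 3 and 29.7, 29.7 and 6.71 FPKM in control libraries 1 to 3. Library 3 was the lowest of its group in both groups, and the groups overlapped. The log2 fold change was 0.53 (SE 0.59, adjusted p = 0.848 by edgeR), and it was 0.10 without control library 3. Has2, on the minus strand of chromosome 7, shares 2129 bases with a plus-strand row of the table that had 180 counts over all 6 libraries, against 1474 or more for Has2 in each library.

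Has1 and Has3, the synthases of low level here, differed in how steady their counts were. Has1 had 31, 70 and 69 counts in preeclampsia libraries 1 to 3, against 18, 10 and 35 counts in control libraries 1 to 3, at most 0.55 FPKM. Preeclampsia library 1 lay below control library 3, so the groups overlapped, and the log2 fold change was 1.41 (SE 0.62, adjusted p = 0.571 by edgeR). Has3 had 55, 58 and 46 counts in preeclampsia libraries 1 to 3 and 54, 52 and 51 counts in control libraries 1 to 3. Its log2 fold change was -0.03 (SE 0.32, adjusted p = 0.984 by edgeR). On the log2 CPM scale its within-group SD was smaller than that of all but 5.03% of tested genes. At so few counts an SD this small cannot be read as steady expression. Has3 overlaps the opposite-strand gene Chtf8 by 166 bases. Chtf8 had 2165 to 3753 counts per library, and since strand-specific counting is not stated, its part in the Has3 counts was not tested.

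The lysosomal hyaluronidase gene Hyal1 and the membrane-anchored Hyal2 overlapped between the groups. Hyal2 stood at 33.2, 32.6 and 23.9 FPKM in preeclampsia libraries 1 to 3 and 30.5, 28.6 and 28.7 FPKM in control libraries 1 to 3. Its log2 fold change of 0.05 had an SE of 0.16, the smallest of the 10 genes (adjusted p = 0.954 by edgeR). Hyal1 stood at 2.87, 4.46 and 2.14 FPKM in preeclampsia libraries 1 to 3 and 2.71, 1.38 and 3.78 FPKM in control libraries 1 to 3, with both extremes inside overlapping groups (log2 fold change 0.29, SE 0.45, adjusted p = 0.891 by edgeR). These genes lie next to each other on chromosome 8, with 3800 bases and no other row of the table between them. Hyal1 overlaps Hyal3 by 142 bases and Naa80 by 213 bases on the same strand, so its counts could hold reads of those genes.

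Cemip's share of the FPKM summed over Hyal1, Hyal2 and Cemip was 68.3, 79.2 and 95.7% in preeclampsia libraries 1 to 3, against 63.2, 64.6 and 55.7% in control libraries 1 to 3. The groups did not overlap in this share, which follows from the Cemip values already given. The summed synthase FPKM overlapped, at 37.9, 39.1 and 19.8 in preeclampsia libraries 1 to 3 and 30.0, 29.9 and 7.10 in control libraries 1 to 3. Cemip over Has2 was 2.07, 3.68 and 30.3 in preeclampsia libraries 1 to 3 and 1.92, 1.85 and 6.10 in control libraries 1 to 3. In both groups library 3 was the highest in this ratio, and the groups overlapped.

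**Figure D3:**
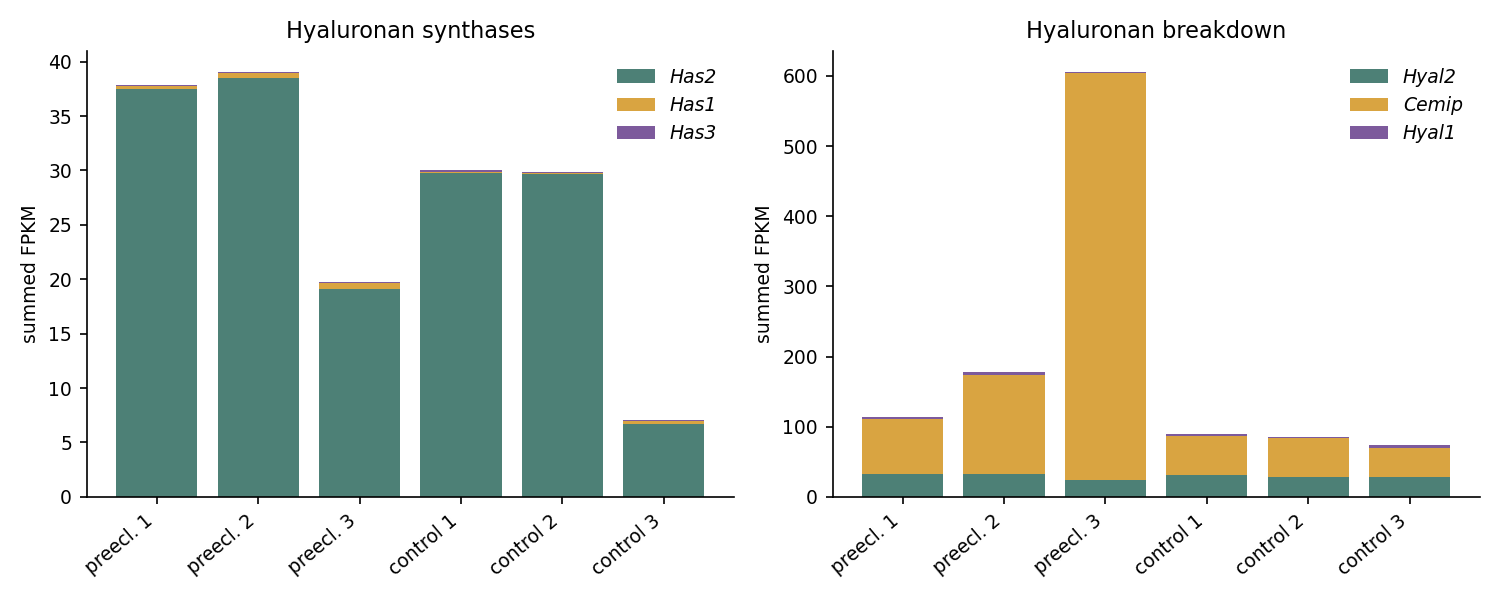
Summed FPKM of the synthases (left) and of Hyal1, Hyal2 and Cemip (right) per library, as stacked bars from 0 on separate linear axes. Has2 fills the synthase bars, lowest in control library 3 at 6.71 FPKM, and Cemip fills most of the breakdown bars, up to 580 FPKM in preeclampsia library 3.

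Versican RNA was among the most abundant in these cultures, its mean of 904 FPKM over all libraries exceeding 99.8% of the genes listed. Vcan stood at 1081, 957 and 862 FPKM in preeclampsia libraries 1 to 3, against 574, 824 and 1126 FPKM in control libraries 1 to 3. The control libraries held both the lowest and the highest value, and the preeclampsia libraries lay between them. The group means were 967 ± 110 and 841 ± 276 FPKM in the preeclampsia and control groups (SD, n = 3 each), and the log2 fold change was 0.23 (SE 0.24, adjusted p = 0.836 by edgeR). It was 0.04 without control library 1 and 0.48 without control library 3. The Vcan row pools 4 transcripts, so splice forms that differ in their chondroitin sulfate attachment regions were not separated. The ratio of Vcan to Tnfaip6 FPKM was 49.1, 36.0 and 18.0 in preeclampsia libraries 1 to 3 and 83.5, 107 and 127 in control libraries 1 to 3, which follows from the Tnfaip6 values already given.

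The link protein genes were low and uneven. Hapln1, the cartilage link protein gene, lies beside Vcan on chromosome 2, with 65329 bases and no other row between them. It stood at 1.10, 0.11 and 0.64 FPKM in preeclampsia libraries 1 to 3, against 5.94, 0.37 and 0.74 FPKM in control libraries 1 to 3. Control library 1 alone was high, at 16.1 times the lowest control library, and the other 5 libraries overlapped. The log2 fold change of -1.98 (SE 1.24, adjusted p = 0.709 by edgeR) became 0.19 without that library. Its within-group SD on the log2 CPM scale was larger than that of 97.1% of tested genes. Aggrecan, the cartilage proteoglycan that Hapln1 links to hyaluronan, is encoded by Acan. Acan stood at 7.04, 0 and 0.09 FPKM in preeclampsia libraries 1 to 3 and 8.33, 0.56 and 0.12 FPKM in control libraries 1 to 3, and library 1 was the highest of its group in both groups, as it was for Hapln1. The 6 chondrocyte markers in the table, Acan among them, summed to 8.43, 1.56 and 1.44 FPKM in preeclampsia libraries 1 to 3 and to 12.6, 2.47 and 2.16 FPKM in control libraries 1 to 3. Acan made up most of the sum in library 1 of both groups. Sox9 stood at 0.76, 1.06 and 1.07 FPKM in preeclampsia libraries 1 to 3 and 3.27, 1.59 and 0.55 FPKM in control libraries 1 to 3, so library 1 was its highest in the control group and its lowest in the preeclampsia group. Col11a2 was highest in preeclampsia library 2 and control library 3. Matn1, Matn3 and Col9a1 stayed under 1 FPKM throughout, and the part of cartilage-like cells in the Hapln1 values was not tested. Hapln3, a link protein gene of wider expression, stood at 0.81, 2.08 and 1.82 FPKM in preeclampsia libraries 1 to 3 and 1.46, 2.88 and 1.33 FPKM in control libraries 1 to 3. The groups overlapped, with a log2 fold change of -0.23 (SE 0.47, adjusted p = 0.918 by edgeR). Hapln3 overlaps Mfge8 by 1 base on the same strand. Mfge8 had 30197 to 74054 counts per library, against 177 to 626 for Hapln3, and its part in the Hapln3 counts was not tested.

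Around these members, 69 further genes of 7 lists were tested, covering precursors, breakdown, receptors, partners and chondroitin sulfate. By edgeR 0 of the 69 passed an adjusted p of 0.05, the smallest being 0.473, while 11 had an unadjusted p under 0.05, 5 higher and 6 lower, against 9.19% of all tested genes. DESeq2 called 1, Fbln1, against 2.36% of all genes with an adjusted p. The groups did not overlap in 10 of the 69, near the 14.5% of all tested genes.

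Of 11 genes of nucleotide sugar synthesis and transport, 5 were above 0 and 6 below. Their median log2 fold change was -0.09 against 0.01 over all tested genes. At an unadjusted p under 0.05 by edgeR, 1 was higher and 3 lower, against 9.19% of all tested genes. The groups did not overlap in 2 higher and 3 lower genes of the 11, against 14.5% of all tested genes. Ugdh, the enzyme that makes UDP-glucuronic acid, stood at 132 ± 9.29 FPKM in the preeclampsia group and 101 ± 13.1 FPKM in the control group (SD, n = 3 each), without overlap. Its log2 fold change was 0.42 (SE 0.14, adjusted p = 0.473 by edgeR). Slc35d2, a Golgi nucleotide sugar transporter gene and not an enzyme of precursor synthesis, was lower without overlap. It stood at 3.28 ± 0.266 FPKM in the preeclampsia group and 4.76 ± 0.327 FPKM in the control group (log2 fold change -0.51, SE 0.16, adjusted p = 0.473 by edgeR). Uap1, which makes UDP-N-acetylglucosamine, stood at 264, 245 and 195 FPKM in preeclampsia libraries 1 to 3 and 83.6, 279 and 410 FPKM in control libraries 1 to 3, and its log2 fold change was -0.09 (SE 0.50).

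Of 7 further genes for breakdown, 4 were above 0 and 3 below, and none passed the edgeR test. Their median was 0.26 against 0.01 over all tested genes. Cemip2, the transmembrane relative of Cemip, stood at 18.0 ± 2.20 FPKM in the preeclampsia group and 13.7 ± 4.03 FPKM in the control group (SD, n = 3 each), with overlap. The lysosomal exoglycosidase genes Hexa and Gusb had log2 fold changes of 0.26 (SE 0.17) and 0.46 (SE 0.22). Idua, a lysosomal enzyme of sulfated chains and not of hyaluronan, was at -0.01 (SE 0.28).

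Of 8 receptor and binding protein genes, 5 were above 0 and 3 below, with none past the edgeR test. Their median was 0.36 against 0.01 over all tested genes. Cd44, the main hyaluronan receptor, stood at 321, 163 and 95.0 FPKM in preeclampsia libraries 1 to 3 and 248, 509 and 244 FPKM in control libraries 1 to 3. Its log2 fold change was -0.78 (SE 0.49, adjusted p = 0.708 by edgeR), and it was -0.35 without control library 2 and -1.32 without preeclampsia library 1. Ptx3, a pentraxin that joins Tnfaip6 protein and heavy chains in the hyaluronan matrix, stood at 10.1, 100 and 115 FPKM in preeclampsia libraries 1 to 3 and 1.62, 4.74 and 65.0 FPKM in control libraries 1 to 3. Library 1 was the lowest and library 3 the highest in both groups, and the groups overlapped (log2 fold change 1.75, SE 1.45, adjusted p = 0.790). Control library 3 lowered that value, which rose to 4.61 without it and was 1.20 without control library 1. Stab1, a scavenger receptor gene of macrophages, stood at 0.92, 35.1 and 11.0 FPKM in preeclampsia libraries 1 to 3 and 5.45, 7.29 and 0.86 FPKM in control libraries 1 to 3. Its lowest values were in preeclampsia library 1 and control library 3, where the macrophage sums were lowest too.

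Among the versican-cleaving proteases 5 of 6 tested were above 0, and none passed. Their median was 0.60 against 0.01 over all tested genes. At an unadjusted p under 0.05 by edgeR 1 was higher, against 9.19% of all tested genes. The groups overlapped in all 6. Adamts15 stood at 0.91, 3.91 and 6.45 FPKM in preeclampsia libraries 1 to 3 and 0.11, 0.21 and 1.36 FPKM in control libraries 1 to 3, a log2 fold change of 2.82 (SE 1.12, adjusted p = 0.530 by edgeR). Control library 3 exceeded preeclampsia library 1, so the groups overlapped, and the log2 fold change was 4.57 without control library 3. Adamts1, the most abundant of these proteases, was at -0.08 (SE 0.36), Adamts5 at 0.37 (SE 0.49) and Adamts9 at 1.23 (SE 0.76). With 1 library left out, Adamts5 ranged from 0.02 to 0.97 and Adamts9 from 0.63 to 1.80. The other lecticans and link proteins left 2 tested genes, Acan at -0.43 (SE 2.19) and Hapln4 at 1.12 (SE 1.00). Hapln4 was very low, at 0.02 to 0.45 FPKM in preeclampsia libraries and 0.09 to 0.19 FPKM in control libraries, with overlap.

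Of 10 genes for versican-binding proteins of the matrix and cell surface, 6 were above 0 and 4 below. Their median was 0.14 against 0.01 over all tested genes. At an unadjusted p under 0.05 by edgeR, 3 were higher and 1 lower, against 9.19% of all tested genes. The groups did not overlap in 2 higher genes and 1 lower gene, against 14.5% of all tested genes. Fbln1, the gene of the versican-binding glycoprotein fibulin-1, stood at 30.0, 44.9 and 194 FPKM in preeclampsia libraries 1 to 3, against 16.5, 21.2 and 22.2 FPKM in control libraries 1 to 3. The groups did not overlap, and preeclampsia library 3 stood far above the rest, as it did for Cemip. Its log2 fold change was 2.20 (SE 0.71), with an adjusted p of 0.473 by edgeR and of 0.033 by DESeq2, the alternatives running from 0.033 to 0.782. It was 0.94 without preeclampsia library 3. Tnc, encoding tenascin-C, stood at 2398 ± 682 FPKM in the preeclampsia group and 1231 ± 403 FPKM in the control group (SD, n = 3 each). Its log2 fold change was 0.99 (SE 0.34, adjusted p = 0.473 by edgeR). The groups overlapped, preeclampsia library 1 at 1671 FPKM lying below control library 2 at 1692 FPKM. Fibronectin, Fn1, was at -0.01 (SE 0.27).

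Chondroitin sulfate chains are what versican carries, and 19 of the 25 genes of their synthesis were below 0 and 6 above (median -0.20 against 0.01 over all tested genes). None passed the edgeR test, and 2 had an unadjusted p under 0.05, both lower, against 9.19% of all tested genes. The groups did not overlap in 2 of the 25, against 14.5% of all tested genes. Fam20b, the kinase of the linker sugar, stood at 11.6 ± 1.99 FPKM in the preeclampsia group and 15.1 ± 0.892 FPKM in the control group (SD, n = 3 each; log2 fold change -0.37, SE 0.13, adjusted p = 0.473 by edgeR). Chsy3, a chondroitin synthase gene, stood at 6.33 ± 1.48 FPKM in the preeclampsia group and 8.99 ± 0.234 FPKM in the control group (-0.49, SE 0.20, adjusted p = 0.543). Chpf, the polymerising factor, was at -0.31 (SE 0.14) and the sulfotransferase gene Chst11 at -0.09 (SE 0.14).

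**Figure D4:**
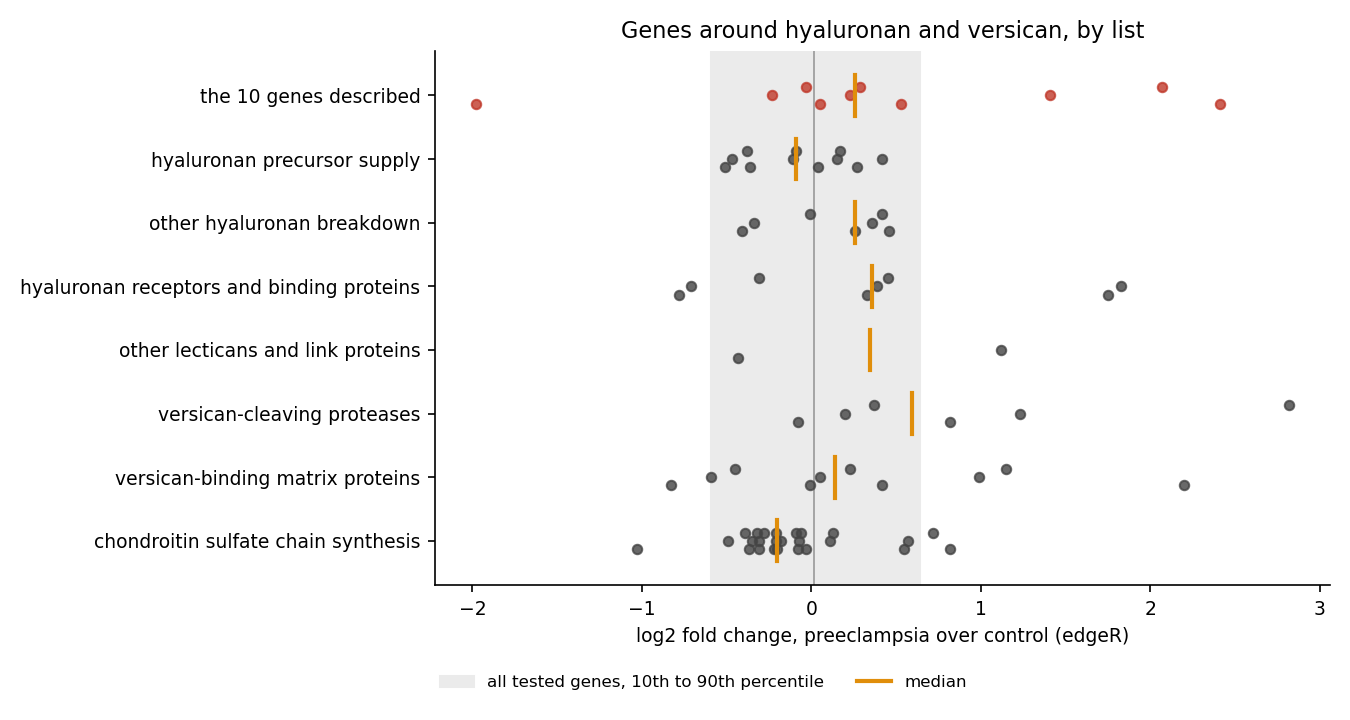
Log2 fold change by edgeR, preeclampsia over control, of the 10 genes described (red) and of the 69 tested genes of 7 lists (dark points), with the median of each list (orange). The grey band holds the 10th to 90th percentile of all 15776 tested genes, and 53 of the 69 list genes lie inside it. Of the list genes, Adamts15 at 2.82 and Fbln1 at 2.20 are the highest, and Cemip is at 2.41.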

How the data were processed

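For every gene and library the authors deposited a count and an FPKM value in 1 table, per the file headers. The labels' protocols describe oligo(dT) enrichment, fragmentation, random-primed cDNA and adapters with unique molecular identifiers, but not whether identifiers were used to collapse reads. Tools named in the submitters' processing notes, without roles, are StringTie 2.1.6, HISAT2 2.2.1, cutadapt 1.9 and FastQC. Sequence names are those of the RefSeq rat assembly before GRCr8, and gene coordinates are the table's own. Multiples of 4 made up 35.1 to 38.0% of the counts from 1 to 15 in a library. An even spread over those values would give a smaller share, so deposited counts may stem from coverage. Low counts (Has1, Has3) are then less certain than their size implies.

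The labels gave 3 libraries per group. No pair was a duplicate, chi-square per degree of freedom between libraries being at least 140. Genes passing filterByExpr were scaled by TMM and compared in R 4.3.3 by the quasi-likelihood test of edgeR 4.0.16, with group as the only term, Benjamini-Hochberg adjustment over 15776 genes and a threshold of 0.05. The SE of a log2 fold change is its size divided by the square root of the F statistic. The median SE was 0.263 and the common biological coefficient of variation 0.418. For the typical tested gene, spread between libraries and not depth thus set the precision. This was not shown for genes of few counts, such as Has1 and Has3. Log2 CPM used a prior count of 2. Alternatives were DESeq2 1.42.0, RLE scaling, the replicate number as a block, no filter, limma 3.58.1 on log2(FPKM + 1) and log2(FPKM + 0.1) for genes with a mean of at least 1 FPKM and without that filter, and each library left out. A fold change on the log2(FPKM + pseudocount) scale understates the change of low genes. Scripts were tested on simulated data.

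The members and lists were chosen with earlier results of these data known. Named genes are all 10 members and, of each list, the 2 with the highest mean FPKM and the 2 with the smallest p, and of each marker list the 2 highest. Other markers and the genes that overlap a member are named besides this rule, after their values were seen.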

Additional observations from a re-analysis of the deposited data

How the results depend on the processing

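By edgeR 0 genes were called with all libraries, so no call could be lost. DESeq2 called 350 genes, 2 members and 1 list gene, and limma on log2(FPKM + 1) without a filter called 1 gene and 0 members. Each library was left out in turn, and control library 3 was left out together with preeclampsia library 1, an alternative chosen after seeing the data. These fits called 0 to 3 genes, 0 members and 0 list genes. Tnfaip6, Cemip, Has1 and Vcan kept their direction in all alternatives run. Log2 fold changes that changed sign when libraries were left out ranged from -0.02 to 0.85 for Has2, -0.10 to 0.05 for Has3, -0.07 to 0.70 for Hyal1, -0.05 to 0.18 for Hyal2, -3.10 to 0.19 for Hapln1, -0.51 to 0.19 for Hapln3, -0.50 to 0.40 for Uap1, -0.19 to 0.35 for Idua, -6.64 to 2.76 for Acan, -0.41 to 0.28 for Adamts1, -0.22 to 0.16 for Fn1 and -0.18 to 0.02 for Chst11. Has2 changed sign only in the fit without control library 3 and preeclampsia library 1. With 1 library left out it ranged from 0.10 to 0.85. Uap1 was at 0.13 in the 3 limma fits and Fn1 at 0.00 under DESeq2 and RLE scaling. With the replicate number as a block, Uap1 was at 0.13, Adamts1 at 0.01 and Fn1 at 0.01, and 0 genes and 0 members were called. The labels do not state that replicate numbers pair libraries. Deviations of same-numbered libraries from their group means correlated at 0.048, 0.041 and 0.010, and not every library correlated best with its own number. Such correlations over all tested genes cannot show whether single genes share a batch or pairing between same-numbered libraries. The block changed the SE of Has2 from 0.59 to 0.31, of Hapln1 from 1.24 to 0.54 and of Hyal1 from 0.45 to 0.57. The cause of the sign changes given above was not tested. Has1, Has3 and Hapln4 had no value under the limma filter. The deposited counts of Has1 and Has3 were low and are less certain than their size implies.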
